A study of Mus musculus with 8 samples.

Results

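Heat shock proteins and DNAJ proteins are molecular chaperones, and their transcripts were followed here in the hypothalamus of 8 adult male mice. Members were the array probes, controls excluded, whose gene name on the array starts with *Hspa*, *Hspb*, *Dnaja*, *Dnajb* or *Dnajc* followed by a digit, starts with *Hsp90*, or is *Hspd1*, *Hspe1* or *Hsph1*. The rule found 71 gene names with 108 probes among 34797 names with 55681 probes. Probes whose signal was flagged as well above background in 4 or more mice entered the tests, which left 100 probes of 67 of these genes among 37313 probes in all. *Dnajb7*, *Dnajc5g* and *Hspb7* were well above background on 0 arrays and *Dnajc22* on 1 control array, so that these 4 genes have no value here. No probe carried the name *Hspa1b*.

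The MS group held 4 mice that were exposed to maternal separation together with unpredictable stress of the dam, from postnatal day 2 to 14, and the control group held 4 mice left undisturbed. All 8 were C3H/HeN males that were housed with 4 to 6 mice of the same condition per cage after weaning. They had performed an operant task for palatable food, part of it under mild food deprivation, before the tissue was taken. Mice of both groups were also deprived of food in the hours before sacrifice. From hypothalamic tissue, 200 ng of RNA per mouse received the label Cy3, and each mouse had an array of its own. The MS mice were numbered 5.3, 7.2, 7.1 and 7.6, and the control mice 8.2, 8.4, 6.2 and 8.5. The meaning of the digit ahead of the dot is not stated, and no such digit occurred in both groups. MS 7.2, 7.1 and 7.6 share a digit, as do control 8.2, 8.4 and 8.5. The main tests take the mice as independent. If mice with the same digit share a litter or cage, the intervals and p-values below rest on fewer independent units than 8. A litter or cage behind that digit cannot be told apart from the group.

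Chaperones bind unfolded or partly folded proteins and keep them from aggregating. Proteins of the Hsp70 class (*Hspa* genes) hold short stretches of a client while they cycle between ATP and ADP, DNAJ proteins (*Dnaja*, *Dnajb*, *Dnajc*) bring the client and start ATP hydrolysis, and proteins of the Hsp110 class such as *Hsph1* exchange the nucleotide. Transcription of some members rises when heat or misfolded protein releases the transcription factor Hsf1, which binds inverted repeats of the unit GAA in their promoters. Others are transcribed in every cell at all times, and those of the endoplasmic reticulum (ER) answer to the unfolded protein response. Neurons depend on the constitutive members for vesicle cycling, where *Dnajc5* accompanies *Hspa8* on synaptic vesicles and *Dnajc6* directs *Hspa8* to clathrin coats.

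Because both modes of transcription have known sequence motifs, the 250 bases before the start of the members that the results turn on are shown here, taken from RefSeq on the build GRCm38.p6. Capitals mark a match to the heat shock motifs GAANNTTC or TTCNNGAA, which are each their own reverse complement, and in *Hspe1* 2 overlapping runs of 3 such units, each unit turned against the one before it and 2 bases away from it. In *Hspa5* they mark the ER stress element, CCAAT followed after 9 bases by CCACG. The stretches lie at chr17:34972157-34972406 on the minus strand (*Hspa1a*), chr5:149636316-149636565 on the minus strand (*Hsph1*), chr5:135887669-135887918 on the plus strand (*Hspb1*), chr1:55087898-55088147 on the plus strand (*Hspe1*) and chr2:34771840-34772089 on the plus strand (*Hspa5*).
Hspa1a: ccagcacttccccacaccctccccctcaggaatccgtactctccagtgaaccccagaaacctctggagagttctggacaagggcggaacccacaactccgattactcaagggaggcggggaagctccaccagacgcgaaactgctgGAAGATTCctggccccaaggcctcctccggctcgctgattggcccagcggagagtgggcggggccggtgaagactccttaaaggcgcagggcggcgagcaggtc
Hsph1: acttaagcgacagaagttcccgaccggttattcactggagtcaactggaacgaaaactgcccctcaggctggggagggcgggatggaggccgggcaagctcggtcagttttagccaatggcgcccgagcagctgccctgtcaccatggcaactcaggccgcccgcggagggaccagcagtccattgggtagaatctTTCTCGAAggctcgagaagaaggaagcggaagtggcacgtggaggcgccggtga
Hspb1: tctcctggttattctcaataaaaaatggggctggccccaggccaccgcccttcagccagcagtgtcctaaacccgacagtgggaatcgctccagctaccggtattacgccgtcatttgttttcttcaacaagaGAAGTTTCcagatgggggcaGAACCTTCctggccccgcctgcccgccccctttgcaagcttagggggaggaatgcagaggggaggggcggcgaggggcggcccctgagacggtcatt
Hspe1: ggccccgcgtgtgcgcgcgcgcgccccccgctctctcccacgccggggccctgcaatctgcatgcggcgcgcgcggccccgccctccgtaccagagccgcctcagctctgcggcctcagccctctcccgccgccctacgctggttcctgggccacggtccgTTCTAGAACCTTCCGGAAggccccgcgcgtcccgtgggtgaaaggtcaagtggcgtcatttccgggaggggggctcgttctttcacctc
Hspa5: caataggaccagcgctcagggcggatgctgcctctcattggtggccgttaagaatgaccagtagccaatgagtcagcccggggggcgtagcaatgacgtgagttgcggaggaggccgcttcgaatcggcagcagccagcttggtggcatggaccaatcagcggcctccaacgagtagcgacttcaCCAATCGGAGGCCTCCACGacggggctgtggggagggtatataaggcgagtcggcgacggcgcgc

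The first base of the match lay 104 bases before the start in *Hspa1a* and 54 bases before it in *Hsph1*. *Hspb1* had matches 117 and 97 bases before its start, and the ER stress element of *Hspa5* began 65 bases before its start. Promoters were at hand for 9 of the 10 listed heat-inducible genes, without *Hsp90aa1*. Of these, 8 (88.9%), all but *Dnajb1*, held at least 1 of the motifs of 2 units. A gene with more than 1 promoter was counted if any of them held a match. The 8 are not all separate, since the windows of *Hspd1* and *Hspe1* overlap and *Hspa1a* and *Hspa1b* are near-identical genes. The constitutive list was searched for 6 of its 10 genes, without *Hspa8*, *Hspa9*, *Hsp90ab1* and *Dnajc5*, and 0 of the 6 held such a motif. The share was 1 of the 6 ER genes searched (16.7%), without *Hspa13*, and 3932 of all 27025 genes with a promoter of this length (14.5%). Runs of 3 units were found in *Hspd1*, *Hspe1* and *Dnajb6* among the members, and in 139 of all genes (0.514%). *Hspd1* and *Hspe1* are neighbors that point away from each other, so that the run between them was counted for both. The ER stress element was found in *Hspa5*, *Hsp90b1* and *Dnajc3*, which are 3 of 6 ER genes, and in 35 of all genes (0.13%). A match describes letters in the window and is not a measured binding site. A single probe measured *Hspa1a*, the inducible Hsp70 of the cytosol, and it is shown because the array file lists transcripts of both *Hspa1a* and its near-identical neighbor *Hspa1b* for it, so that the value below may hold both. It lies at chr17:35107117-35107176 on the build mm9 of the array files.
Hspa1a probe: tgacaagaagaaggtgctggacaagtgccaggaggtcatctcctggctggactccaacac

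All values below are log2 of the background-subtracted intensity minus the 75th percentile of the array, with the brightest tested probe standing for its gene. The level of a probe depends on its sequence, so that values are compared between mice and never between probes. The arrays had 34074 to 39598 of the 55681 probes well above background (61.2% to 71.1%). The 75th percentile of the intensity was 567 on the array of MS 7.6 and 853 to 1018 on the others. Relative to that percentile, the brightest 10% of the tested probes (3732) had a median deviation of 0.11 in MS 7.6, -0.02 to 0.01 in the other MS mice, -0.09 in control 8.5 and close to 0 in the other control mice. All 12 listed peptides and transcription factors of the hypothalamus were tested, 4 with a log2 fold change above 0 and 8 below. *Hcrt* (-1.44) and *Pmch* (-0.46), 2 peptides of the lateral hypothalamus, had an unadjusted p under 0.05 in limma (16.7% of the list, beside 3.3% of all tested probes), adjusted p = 0.98. So did *Aqp4* of astrocytes (0.26, groups not overlapping) and *Tshb* of the pituitary (-2.19), also with an adjusted p of 0.98, and 0 genes of the other 11 marker lists. Markers of neighboring tissue varied between mice. The 7 tested of 8 pituitary genes had a median deviation of -0.87 to -0.04 in MS mice and -0.50 to 2.00 in control mice, highest in control 6.2, and the 8 genes of fibroblasts and meninges had -0.51 to 0.68 in MS mice and -0.64 to 0.77 in control mice, highest in MS 7.6 and control 8.5. The part of dissection and of these arrays in the results below was not tested, and in whole tissue fewer cells of a type and less RNA per cell cannot be told apart.

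The first question was whether chaperone transcripts differed between MS and control hypothalami. None of the 100 member probes passed limma after Benjamini-Hochberg adjustment, with a smallest adjusted p of 0.98. This was also the case for the array as a whole, where 0 of 37313 probes passed (0%) and the smallest adjusted p was 0.13. At an unadjusted p under 0.05, 2 member probes (2%) stood beside 1230 of all probes (3.3%), and with 1 probe per gene it was 1 of 67 genes (1.49%), namely *Hspb8*. The MS and control mice did not overlap for 2 member probes that were higher in MS, against 0.943% of all probes, and for 1 that was lower in MS, against 1.09%. Both higher ones belonged to *Hspe1* and lie at nearly the same place (chr1:55148026-55148085 and chr1:55148023-55148082 on mm9), so that they are close to 1 measurement. The lower one was a dim second probe of *Dnajc11*, whose 3 tested probes ranged in log2 fold change (MS minus control) from -0.20 to -0.02.

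The differences were small, and most were bounded within 1.5-fold. The median log2 fold change of the 67 genes was 0.04 and 46 of them were above 0 (68.7%), beside a median of 0.00 and 51.8% over all tested probes. In row 1 of the slide alone, which held MS 5.3 and 7.2 with control 8.2 and 8.4, the median of the members was -0.01. The 95% confidence interval lay within 1.5-fold in either direction for 62 of the 67 genes and within 2-fold for 66. Of all 37313 tested probes, 31367 and 35389 had such intervals. By family, the medians were 0.04 for 12 *Hspa*, 0.11 for 7 *Hspb*, 0.05 for 3 *Hsp90*, 0.07 for 4 *Dnaja*, 0.00 for 12 *Dnajb* and 0.01 for 26 *Dnajc* genes. Of 23 genes with more than 1 tested probe, 9 had probes that differed in sign.

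**Figure D1:**
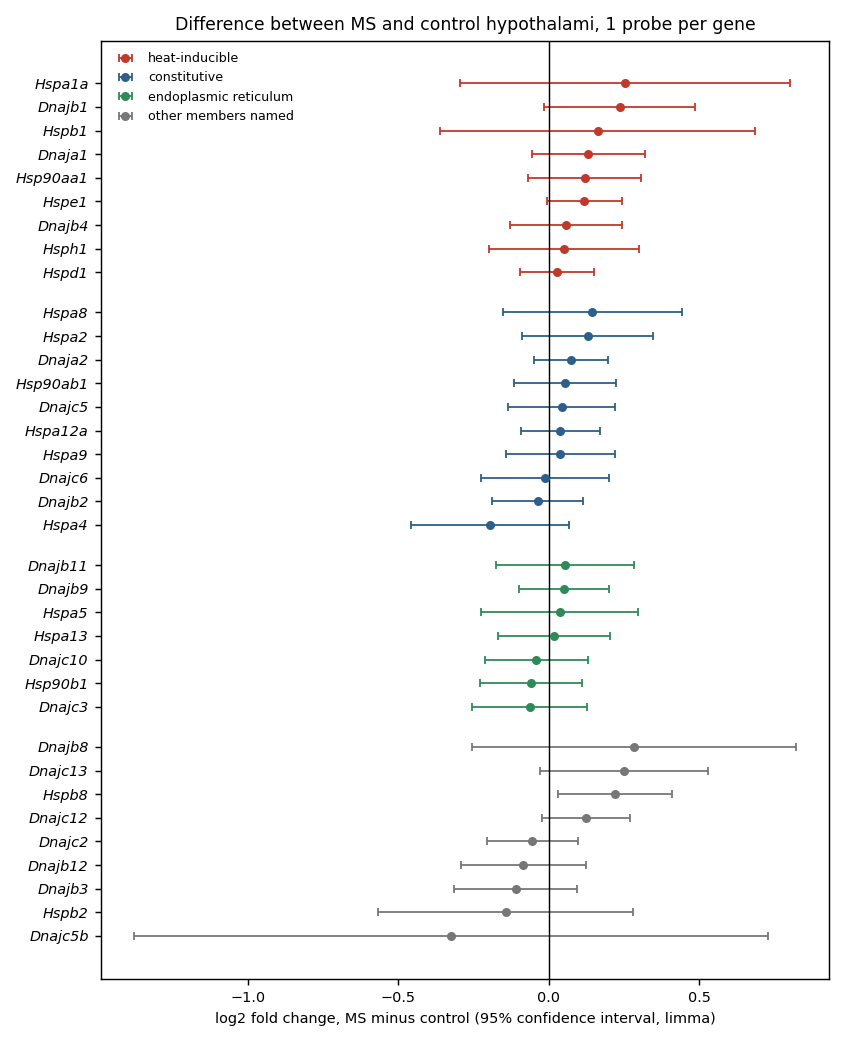
Log2 fold change (MS minus control) of the 35 named genes on the x axis, 1 probe per gene, with the 95% confidence interval of limma as a bar (n = 4 per group); colors give the heat-inducible, constitutive and ER lists and the other named members. The interval of *Hspb8* (0.03 to 0.41) is the one that lies to the right of 0, and all 9 heat-inducible points lie above 0 with intervals that include it.

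The heat-inducible list had 9 tested genes, all of which had a positive log2 fold change, from 0.03 to 0.25 with a median of 0.12, and 0 of which passed the test. For 7 of them the interval lay within 1.5-fold. *Hspa1a* had -0.16, -0.75, -1.23 and -0.54 in MS 5.3, 7.2, 7.1 and 7.6, against -0.72, -1.10, -1.28 and -0.60 in control 8.2, 8.4, 6.2 and 8.5. The groups overlapped, and the log2 fold change was 0.25 (95% confidence interval -0.29 to 0.80, limma adjusted p = 0.98). It was 0.46 in slide row 1, 0.05 in row 2 and 0.08 without MS 5.3. *Hspb1*, a small heat shock protein that holds unfolded clients, had 3.37, 2.57, 2.51 and 3.33 in MS 5.3, 7.2, 7.1 and 7.6, against 2.84, 2.84, 2.46 and 3.004 in the control mice in the same order as above. MS 5.3 and 7.6 lay above every control mouse while MS 7.2 and 7.1 lay below 3 of the 4, and the log2 fold change of 0.16 (-0.36 to 0.69, adjusted p = 0.98) was 0.02 without MS 5.3 and 0.03 without MS 7.6.

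*Hsph1*, the inducible Hsp110, had 5.10, 4.77, 4.70 and 5.03 in MS 5.3, 7.2, 7.1 and 7.6, against 4.93, 4.78, 4.71 and 4.98 in control 8.2, 8.4, 6.2 and 8.5. The group means differed by 0.05 (-0.20 to 0.30), less than the SD within either group (0.19 in MS and 0.13 in control mice, n = 4 each). *Dnajb1*, the main inducible Hsp40, had 5.22, 5.05, 4.79 and 5.05 in MS mice, against 5.01, 4.67, 4.70 and 4.79 in control mice. The 3 highest values were those of MS 5.3, 7.6 and 7.2, control 8.2 was next, and the log2 fold change was 0.24 (-0.02 to 0.49, unadjusted p = 0.0629 in limma, adjusted p = 0.98), with 0.29 in slide row 1 and 0.18 in row 2. *Dnaja1*, a farnesylated DNAJ protein of the cytosol, had 5.14, 4.91, 4.85 and 5.12 in MS mice, against 4.93, 4.79, 4.85 and 4.92 in control mice, with MS 5.3 and 7.6 above all others and a log2 fold change of 0.13 (-0.06 to 0.32).

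On the brightest probe, groups did not overlap for 1 of the 67 genes, beside 0.943% of all probes higher and 1.09% lower in MS. This gene was *Hspe1*, the lid of the mitochondrial chaperonin. It had 4.50, 4.43, 4.43 and 4.53 in MS 5.3, 7.2, 7.1 and 7.6, against 4.39, 4.37, 4.29 and 4.36 in control mice. The log2 fold change was 0.12 (-0.01 to 0.24, unadjusted p = 0.0595 in limma, adjusted p = 0.98), and it was 0.08 in slide row 1 and 0.15 in row 2. Of the other 2 probes of the gene, 1 covers nearly the same bases (0.09). The other lies apart from both and had 0.18 (-0.09 to 0.445), with groups that overlapped. *Hspd1*, which forms the barrel of the same chaperonin and shares the promoter region shown above, had a log2 fold change of 0.03 (-0.10 to 0.15). *Hsp90aa1*, the inducible Hsp90, had 5.96, 5.86, 5.88 and 6.21 in MS mice, against 5.83, 5.87, 5.85 and 5.88 in control mice, and its log2 fold change of 0.12 (-0.07 to 0.31) came with a value of MS 7.6 that stood above all others. *Dnajb4*, another inducible DNAJ protein, had a log2 fold change of 0.06 (-0.13 to 0.24).

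**Figure D2:**
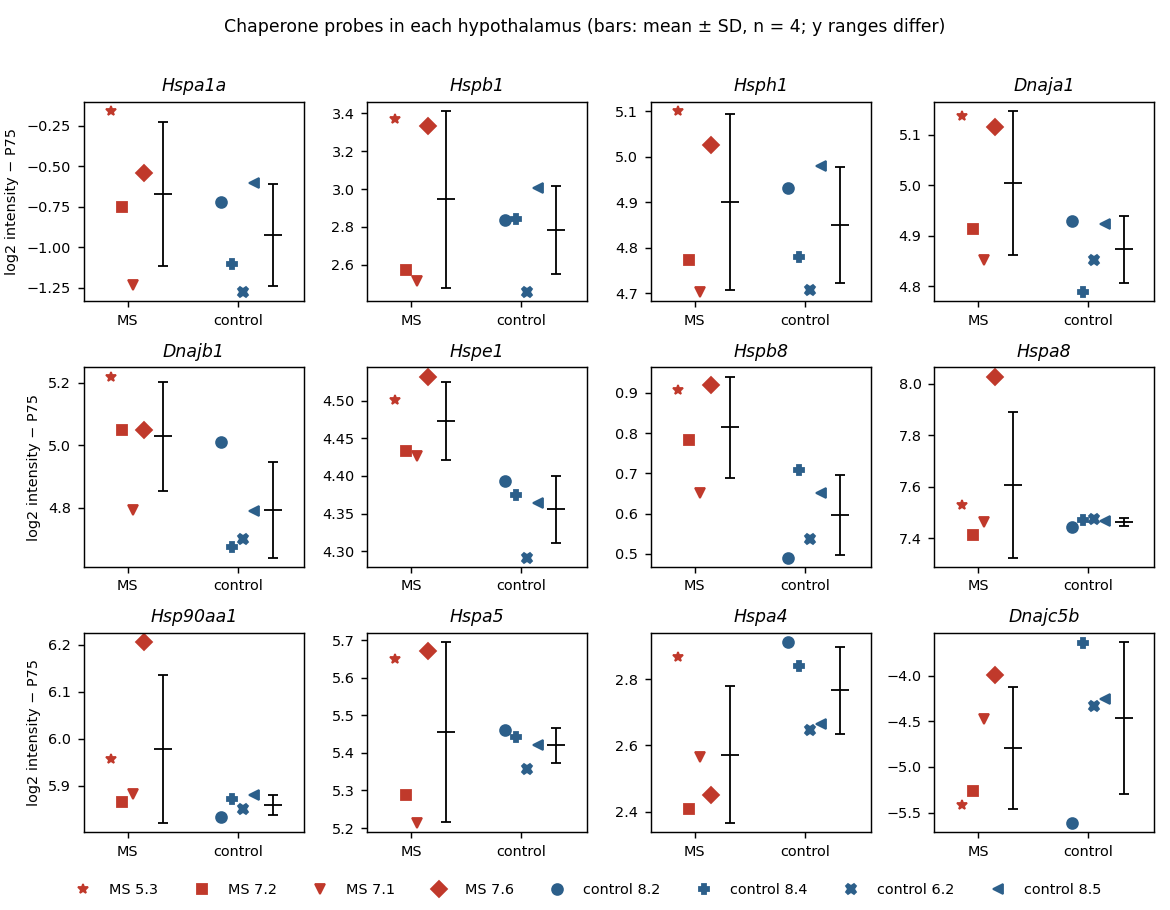
Log2 intensity minus the 75th percentile of the array (P75) for 12 chaperone genes, with each symbol 1 mouse, MS to the left of control in each panel, and the black bar the mean ± SD (n = 4 each; y ranges differ between panels). MS 5.3 and 7.6 lie high for *Hspa1a*, *Hspb1*, *Hsph1*, *Dnaja1* and *Hspa5*, MS 7.2 and 7.1 lie lower than these 2 mice for the same genes, below all control mice for *Hspa5*, and the groups are apart for *Hspe1*.

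Of the 10 constitutive genes, 7 had a positive log2 fold change and 3 a negative one, from -0.19 to 0.14 with a median of 0.04, and 0 passed the test. All 10 intervals lay within 1.5-fold. *Hspa8*, the constitutive Hsp70 of the cytosol, had 7.53, 7.41, 7.46 and 8.03 in MS 5.3, 7.2, 7.1 and 7.6, against 7.44, 7.47, 7.48 and 7.47 in control 8.2, 8.4, 6.2 and 8.5. MS 7.6 stood apart from the other mice, which spanned 7.41 to 7.53, and the log2 fold change of 0.14 (-0.15 to 0.44, adjusted p = 0.98) was 0.00 without it. The other probes of *Hspa8* set this mouse less apart. On 1 of them MS 7.6 had 6.74 and MS 5.3, the next mouse, 6.57. On the dimmest, MS 7.6 and control 8.5 both had 4.58. *Hsp90ab1*, the constitutive Hsp90, had 0.05 (-0.11 to 0.22), *Dnaja2* 0.07 (-0.05 to 0.20), *Hspa2*, which is best known from the testis, 0.13 (-0.09 to 0.35), and *Hspa9*, the Hsp70 of mitochondria, 0.04 (-0.14 to 0.22). The synaptic members had 0.04 (-0.13 to 0.22) for *Dnajc5* and -0.01 (-0.23 to 0.20) for *Dnajc6*, *Hspa12a*, a distant Hsp70, had 0.04 (-0.09 to 0.17), and *Dnajb2*, a neuronal DNAJ protein that passes clients to the proteasome, had -0.04 (-0.19 to 0.11).

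*Hspa4*, a constitutive Hsp110, was the listed gene whose probes differed most from each other. Its brightest probe had 2.87, 2.41, 2.56 and 2.45 in MS 5.3, 7.2, 7.1 and 7.6, against 2.91, 2.84, 2.65 and 2.66 in control mice, a log2 fold change of -0.19 (-0.46 to 0.07). A second probe of nearly the same intensity had -0.01 (-0.16 to 0.13). The remaining, dimmer probe had 0.94, -0.30, 0.51 and 0.12 in MS mice, against 1.38, 1.23, 0.91 and 0.54 in control mice, a log2 fold change of -0.70 (-1.34 to -0.05, unadjusted p = 0.0378 in limma, adjusted p = 0.98). The 3 probes thus differed in size, and which transcripts each probe detects was not tested.

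The ER list had 7 tested genes, 4 with a positive and 3 with a negative log2 fold change, a median of 0.02 and 0 past the test, and all 7 intervals lay within 1.5-fold. *Hspa5*, the ER Hsp70 also known as BiP, had 5.65, 5.29, 5.21 and 5.67 in MS 5.3, 7.2, 7.1 and 7.6, against 5.46, 5.44, 5.36 and 5.42 in control 8.2, 8.4, 6.2 and 8.5. The MS mice lay on both sides of the control mice, 2 above and 2 below all 4 of them, and the log2 fold change was 0.04 (-0.23 to 0.30). Its partners *Dnajb11* (0.05, -0.17 to 0.28) and *Dnajb9* (0.05, -0.10 to 0.20), the ER Hsp90 *Hsp90b1* (-0.06, -0.23 to 0.11), *Hspa13* (0.02, -0.17 to 0.20), *Dnajc3*, an ER cochaperone and inhibitor of eIF2 kinases (-0.06, -0.25 to 0.13), and the disulfide reductase *Dnajc10* (-0.04, -0.21 to 0.13) gave similar bounds.

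Outside the 3 lists, *Hspb8* had the smallest p of the 67 genes. It works with *Bag3* to pass misfolded proteins to autophagy, and it had 0.91, 0.78, 0.65 and 0.92 in MS 5.3, 7.2, 7.1 and 7.6, against 0.49, 0.71, 0.54 and 0.65 in control 8.2, 8.4, 6.2 and 8.5. MS 5.3, 7.2 and 7.6 lay above all control mice and MS 7.1 lay at the level of control 8.5. The log2 fold change was 0.22 (0.03 to 0.41, unadjusted p = 0.0284 in limma, adjusted p = 0.98), with 0.25 in slide row 1 and 0.19 in row 2. *Bag3*, which is not a member, had 0.22 (unadjusted p = 0.048, adjusted p = 0.98). *Dnajc13*, which acts on clathrin at endosomes, had 0.25 (-0.03 to 0.53), with 0.01, 0.07, -0.06 and -0.31 in MS mice, against -0.07, -0.50, -0.25 and -0.47 in control mice. *Dnajc12*, a cochaperone of hydroxylases needed to make tyrosine, dopamine and serotonin, had 0.12 (-0.02 to 0.27). On the lower side, the smallest p values after *Hspa4* were those of *Dnajb3* (-0.11, -0.31 to 0.09), *Dnajb12* (-0.08, -0.29 to 0.12), the ribosome-bound *Dnajc2* (-0.05, -0.21 to 0.10) and *Hsp90b1*, and none of these had an unadjusted p under 0.2 in limma.

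The 5 genes with the largest SD within groups were *Dnajc5b*, *Hspa1a*, *Dnajb8*, *Hspb1* and *Hspb2*. *Dnajc5b*, a relative of *Dnajc5*, was the dimmest of them, with -5.42, -5.26, -4.48 and -4.00 in MS mice, against -5.62, -3.65, -4.33 and -4.26 in control mice, and its log2 fold change of -0.32 (-1.38 to 0.73) was the one member interval wider than 2-fold. *Dnajb8*, a testis DNAJ protein, had 0.28 (-0.25 to 0.82) and *Hspb2*, a small heat shock protein of muscle, -0.14 (-0.57 to 0.28). All 5 were well above background on all 8 arrays. The SD within groups was 0.39 for *Hspa1a* and 0.37 for *Hspb1*, at percentiles 91 and 90.1 of all tested probes. The 32 members outside the 35 named genes ranged from -0.10 to 0.25 in log2 fold change, with 22 above 0 and 10 below.

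The other genes of the pathway are given by list. Of 25 heat shock factors and cochaperones, 20 had a positive log2 fold change (median 0.04) and 0 passed the adjustment. An unadjusted p under 0.05 in limma was found for 1 of them (*Bag3*, 4%), beside 3.3% of all tested probes. *Hsf1* itself had -0.01. *Trap1*, the mitochondrial Hsp90, had the smallest p on the lower side (-0.12, unadjusted p = 0.0531 in limma, adjusted p = 0.98) with groups that did not overlap. The groups did not overlap on that side for 1.09% of all tested probes. Of 17 genes of the unfolded protein response, 10 were above 0 (median 0.03) and 0 had an unadjusted p under 0.05, the smallest p in each direction being those of *Ddit3* (0.06) and *Trib3* (-0.11). Of the 8 subunits of the cytosolic chaperonin, which folds actin and tubulin, 7 were above 0 (median 0.05). *Tcp1* (0.11, unadjusted p = 0.1 in limma) had groups that did not overlap, as did 0.943% of all tested probes on the higher side. *Cct7* (-0.01) was the subunit below 0. Of 7 mitochondrial genes 6 were above 0 (median 0.03), and of 6 tested small heat shock proteins 5 (median 0.13).

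The MS mice lay further apart than the control mice for most inducible and ER genes. The SD was larger in MS mice for 8 of 9 heat-inducible genes (88.9%, median SD 0.16 in MS and 0.11 in control mice), for 6 of 7 ER genes (85.7%, 0.13 in MS and 0.07 in control mice), for 6 of 10 constitutive genes (60%, 0.11 in MS and 0.05 in control mice) and for 42 of all 67 members (62.7%), beside 57.3% of all tested probes. The difference in spread was not tested. The median deviation of the 9 heat-inducible genes from their own mean was 0.20, -0.03, -0.09 and 0.15 in MS 5.3, 7.2, 7.1 and 7.6, against 0.05, -0.09, -0.13 and -0.01 in control 8.2, 8.4, 6.2 and 8.5. For the ER genes it was 0.10, -0.11, -0.11 and 0.07 in these MS mice, against 0.02, 0.00, -0.08 and 0.05 in the control mice. For the constitutive genes it was 0.04, -0.04, -0.02 and 0.07 in MS mice, against 0.03, -0.01, -0.04 and -0.05 in control mice. MS 5.3 and 7.6 were the 2 highest mice in all 3 lists. Of these, MS 7.6 had the dimmest array and a high level of meningeal markers (0.68), while MS 5.3 had a meningeal level of -0.14 and an array like the others, and the part of either in the chaperone values was not tested.

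**Figure D3:**
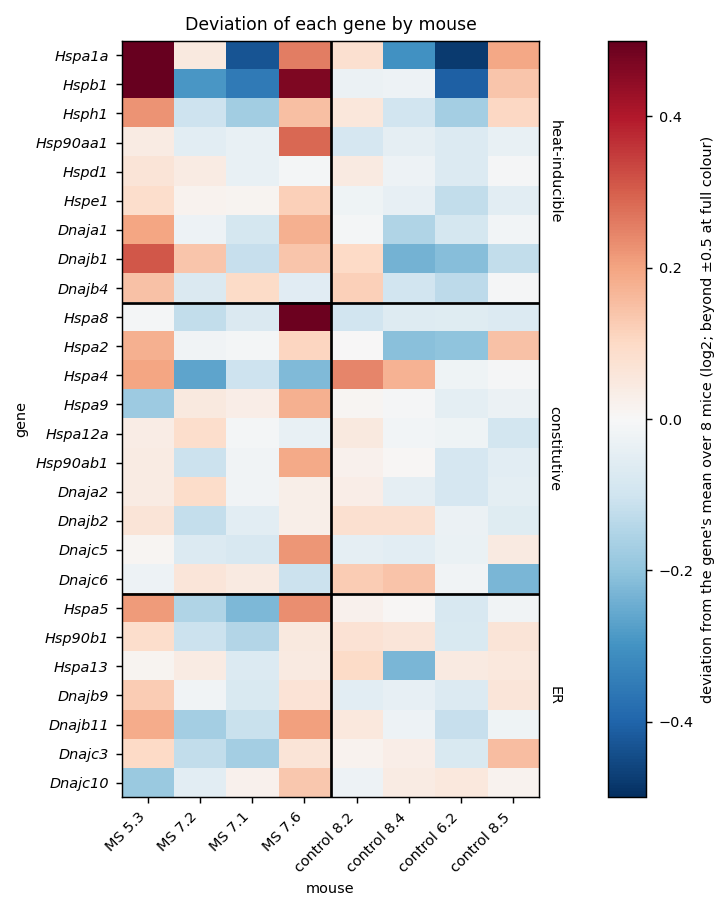
Deviation of each of the 26 listed genes from its own mean over the 8 mice (log2, color scale from -0.5 to 0.5), with genes as rows in 3 blocks (heat-inducible, constitutive, ER) and mice as columns, MS left of the line and control right of it. The columns of MS 5.3 and 7.6 are mostly red in the heat-inducible block, where their medians are 0.20 and 0.15, and the constitutive block is mixed, with its deepest red for *Hspa8* in MS 7.6 and deviations of both signs for *Hspa4* and *Hspa2*.

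The second question was whether inducible and constitutive members varied together from mouse to mouse. All 325 pairs among the 26 listed genes were tested over the 8 mice with an exact permutation test of Pearson's r (two-sided, 40320 pairings, smallest possible p 2.48e-05), and p-values were adjusted over the 325 pairs. The median r was 0.66 among the 36 pairs of heat-inducible genes, of which 35 were above 0 and 15 (41.7%) had an r of at least 0.7. It was 0.28 for the 90 pairs of a heat-inducible with a constitutive gene, of which 15 (16.7%) had an r of at least 0.7, and 0.46 for the 63 pairs of a heat-inducible with an ER gene (18, 28.6%). Among the 45 pairs of constitutive genes the median was 0.09 with 5 such pairs (11.1%), and among the 21 pairs of ER genes 0.26 with 9 (42.9%). The background is the share of all other tested probes with an r of at least 0.7 to a gene of the list, which was 4.17% for heat-inducible, 5.96% for constitutive and 3.68% for ER genes. These shares describe the 8 mice, whose arrays each have 1 scaling factor common to all probes. The background was not matched for intensity. Of the heat-inducible list, *Dnaja1*, *Dnajb1*, *Hsp90aa1*, *Hspd1*, *Hspe1* and *Hsph1* lie in the brightest 10% of the tested probes. The part of intensity in these shares was not tested.

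The median r of pairs with heat-inducible genes was lower when 2 mice were left out. The first setting left out the 2 mice farthest from the median of the gene on the x axis, chosen for each pair. The median r was then 0.32 within the heat-inducible list, 0.12 between heat-inducible and constitutive genes and 0.19 between heat-inducible and ER genes. Without MS 5.3 and MS 7.6, a setting chosen after seeing the data, it was 0.39, 0.12 and 0.15, with 6 of 36 heat-inducible pairs (16.7%) at an r of at least 0.7. Leaving out mice at the ends narrows the range of the values, which alone can lower r. These settings therefore do not tell how much of the co-variation rested on 2 mice. Deviations from the group mean gave a median r of 0.62 within the heat-inducible list, and deviations from the mean of the slide row gave 0.70. The value was thus about as large within groups and within rows.

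**Figure D4:**
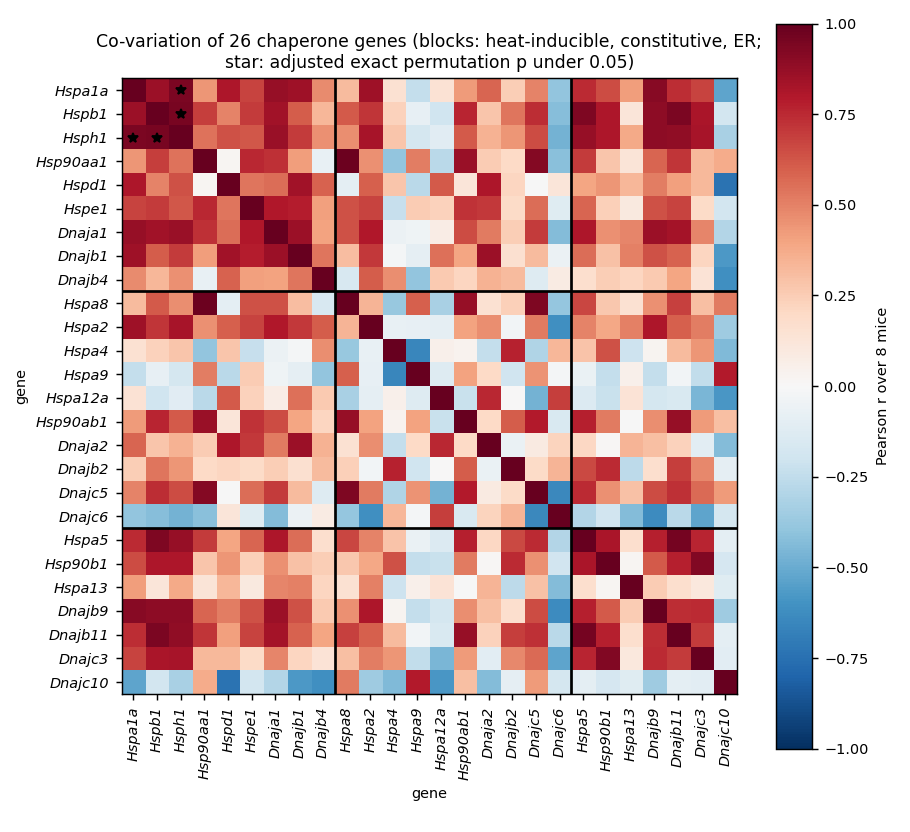
Pearson's r over the 8 mice for each pair of the 26 listed genes, in the order heat-inducible, constitutive, ER (lines separate the blocks; red is positive, blue negative), with a star where the adjusted exact permutation p is under 0.05. The upper left block is mostly red (median r 0.66), the constitutive block in the middle is mixed (0.09), and the 2 starred pairs are *Hspb1* with *Hsph1* and *Hspa1a* with *Hsph1*.

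The adjustment was passed by 2 of the 325 pairs, both within the heat-inducible list. *Hspb1* and *Hsph1* had r = 0.95 (exact permutation p = 9.92e-05, adjusted p = 0.0202) and rho = 0.95, and *Hspa1a* and *Hsph1* had r = 0.94 (exact permutation p = 0.000124, adjusted p = 0.0202) and rho = 0.95. For rho, 0 of 325 pairs passed, with a smallest adjusted permutation p of 0.148, and 46 pairs had an unadjusted permutation p under 0.05. Without the 2 mice farthest on the x axis, r was 0.89 and 0.88 for these pairs, and without MS 5.3 and 7.6 it was 0.89 and 0.87. In both pairs MS 5.3, MS 7.6 and control 8.5 formed the upper end, and MS 7.1 and control 6.2 the lower end. The 2 pairs did not pass the adjustment with quantile normalization (r = 0.85 and 0.90), with normexp background correction, or in the authors' table (0.76 and 0.90). With 1 mouse left out, r stayed between 0.92 and 0.97 for *Hspb1* with *Hsph1* and between 0.90 and 0.99 for *Hspa1a* with *Hsph1*, where 7 mice allow a lone pair no adjusted p below 0.0645.

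Pairs with ER members did not pass at this scaling, although some had a high r. Within the ER list, *Hspa5* and its partner *Dnajb11* had r = 0.95 (exact permutation p = 0.000744, adjusted p = 0.0806, rho = 0.90, 0.98 without the 2 farthest mice), and *Hsp90b1* had r = 0.93 with *Dnajc3*. Of the 18 pairs of a heat-inducible with an ER gene at an r of at least 0.7, *Hspb1* had r = 0.94 with *Dnajb11* and 0.93 with *Hspa5*, both with an adjusted permutation p of 0.0826, and 0.78 and 0.76 without the 2 farthest mice. *Hspa1a* had r = 0.91 with *Dnajb9* (adjusted permutation p = 0.0826).

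The constitutive genes split. *Hspa2* followed the inducible genes, with a median r of 0.71 to the 9 of them and 0.85 to *Hspa1a* (adjusted permutation p = 0.121), and *Dnaja2* had r = 0.85 with *Dnajb1* (adjusted permutation p = 0.139, 0.93 without the 2 farthest mice). *Hspa9* (median r -0.09), *Hspa12a* (0.15), *Hspa4* (0.16), *Dnajb2* (0.25) and *Dnajc6* (-0.39) had an r of at least 0.7 with 0 of the 9 heat-inducible genes. *Hspa8*, *Hsp90ab1* and *Dnajc5*, and with them the heat-inducible *Hsp90aa1*, had high values of r that changed with 1 mouse. These genes lie in the brightest 10% of the tested probes. So do *Hsph1*, which is in both pairs past the adjustment, and *Dnaja1*, *Dnajb1*, *Hspd1*, *Hspe1*, *Hspa9*, *Hspa5* and *Hsp90b1*. *Hspa8* had r = 0.98 with *Hsp90aa1* (exact permutation p = 0.00501, adjusted p = 0.102, rho = 0.62), 0.93 with *Dnajc5* and 0.87 with *Hsp90ab1*. Without MS 7.6 these were 0.77, 0.52 and 0.59, and without the 2 farthest mice 0.24, 0.34 and 0.31. With quantile normalization, which sets the brightest probes of all arrays to the same scale, they were 0.81, 0.15 and 0.10. *Hspa8* also had an r of at least 0.7 with 10.7% of all tested probes, against 3.42% for *Hspa1a*. Between the constitutive *Hspa8* and the inducible *Hspa1a*, the 2 main Hsp70 genes of the cytosol, r was 0.32 (exact permutation p = 0.467, adjusted p = 0.751, rho = 0.36).

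**Figure D5:**
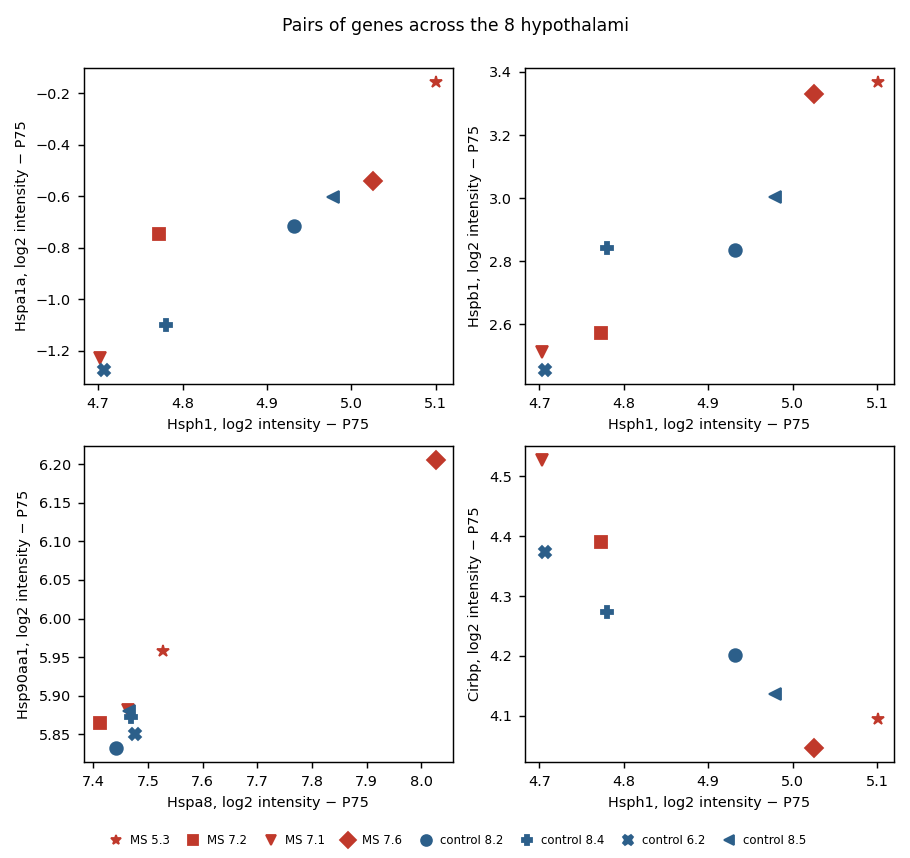
Log2 intensity minus the 75th percentile of the array (P75) of 1 gene against another, each symbol 1 mouse (red MS, blue control): *Hspa1a* and *Hspb1* against *Hsph1* (r = 0.94 and 0.95), *Hsp90aa1* against *Hspa8* (0.98) and the cold-inducible *Cirbp* against *Hsph1* (-0.93). The mice of both groups lie along the same band in the panels with *Hsph1*, while in that of *Hspa8* a single mouse, MS 7.6, lies far from the rest.

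Among all 37295 tested probes with a value on every array, *Hspa1a* was most like *Cct6a*, a subunit of the cytosolic chaperonin, of the named genes (r = 0.97 over 8 mice, rank 2), followed by *Fastk*, *Mkks*, *Zfp52* and *Usp45* (0.95 to 0.96). Of the members and chaperone lists, *Hsph1* stood at rank 16, the Hsp90 partner *Chordc1* at 25 (0.93), *Cacybp* at 54 (0.91), *Dnajb9* at 68 and the cochaperone *Fkbp4* at 90 (0.90). At the other end stood *Dnajc18* (r = -0.89, rank 37193), *Dnajc16* (-0.81, rank 36891) and *Dnajb12* (-0.71, rank 36086). Many others also had an r below 0, so that the members did not follow *Hspa1a* as a whole. Ranks among so many probes over 8 mice are a description and carry no test.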

How the data were processed

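The arrays of the hypothalamus were analysed, 1 per mouse, and groups came from the sample labels. NAc and mPFC arrays are not analysed here. From each array the authors deposited the output of Agilent Feature Extraction 10.10.1.1, which gives each spot a processed intensity, background-subtracted and corrected for gradients, and a flag for signals above background. Log2 values per probe were deposited by the authors in a separate table; their normalization is not given in the sources used, although the submitters' processing notes name limma.

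All further steps ran in R 4.3.3, using limma 3.58.1 and the package data.table in its version 1.17.8. Control and outlier spots were left out, log2 processed intensities were averaged over the spots of a probe, and each array was scaled by subtracting its 75th percentile. Probes flagged above background in 4 or more of the 8 mice were tested with lmFit and eBayes (two-sided, Benjamini-Hochberg at 0.05), with 95% confidence intervals, after the procedure had been tested on simulated data. The tests rest on 8 arrays, and their number limits the precision. The brightest tested probe stood for a gene. Pairs of genes were tested with exact permutation over the mice. Motifs were searched on both strands of the 250 bases before each RefSeq start.

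The members and lists were chosen with earlier results of these data known. Genes named are those of the heat-inducible, constitutive and ER lists, the 5 of smallest p in each direction, the 5 of largest SD within groups, and, for the other chaperone and stress lists, the gene with the lowest p on either side. Probes or genes with non-overlapping groups, *Hsf1*, *Hcrt*, *Pmch*, *Aqp4*, *Tshb*, *Cirbp* and those most and least like *Hspa1a* were named after their values were seen. The alternatives were quantile and median scaling, the authors' table, background correction by normexp (offset 50), all probes or those above background on every array, slide row as a block or alone, the first digit of the mouse number as a random block, the mean of all probes of a gene, deviations from group or row means, and leaving out mice.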

Additional observations from a re-analysis of the deposited data

Results flagged for a closer look

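In the 70 groups of 4 mice checked (35 named genes in MS and in control mice), 4 held a mouse whose gap to the nearest other mouse was larger than Dixon's 95% critical value for 4 values allows. Chance alone is expected to do so in about 1 of 20 groups. *Dnajb3* was -1.57 in MS 7.1, and the other MS mice had -1.63 to -1.62. *Dnajc5* was 6.98 in control 8.5, and the other control mice had 6.89 to 6.90. *Hsp90b1* was 4.85 in control 6.2, and the other control mice had 4.99 to 5.003. *Hspa13* was 1.47 in control 8.4, and the other control mice had 1.74 to 1.79. MS 7.6, which stood apart for *Hspa8* and *Hsp90aa1*, was the odd mouse in 0 of these.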

How the results depend on the processing

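No member probe passed the adjusted test under any setting run. Over all probes, 1 passed in row 2 of the slide alone and 1 with the first digit of the mouse number as a random block, against 0 otherwise. The median log2 fold change of the members was -0.011 in row 1 alone and 0.0377 with all mice. Of the 35 named genes, 20 kept their sign in all 19 settings and 15 turned it in at least 1, and 0 of the 665 values were called. The count of 2 called pairs became 0 with quantile normalization, with normexp background correction, in the authors' table, with the mean of all probes of a gene, without MS 5.3 and MS 7.6, and when any 1 mouse was left out (range 0 to 0). The last 2 say nothing about stability, since a lone pair can reach no adjusted p below 0.0645 with 7 mice and 0.451 with 6. With median scaling it was also 2, of which *Hspa1a* with *Hsph1* was shared and *Hspa5* with *Dnajb11* was not. The cause of the other changes was not tested. The median r of heat-inducible with constitutive genes was 0.2781, and it was 0.4412 with median scaling, 0.123 with the mean of all probes of a gene, 0.1246 without MS 5.3 and MS 7.6 and 0.1189 without the 2 mice farthest on the x axis. That of heat-inducible with ER genes was 0.4587, and it was 0.5955 for deviations from the group mean, 0.3235 with the mean of all probes, 0.1504 without MS 5.3 and MS 7.6 and 0.1945 without the 2 farthest mice. Within the heat-inducible list it was 0.6573, and 0.3871 without MS 5.3 and MS 7.6 and 0.3153 without the 2 farthest mice, and within the constitutive list 0.0873 and 0.3008 without the 2 farthest mice. Leaving out 1 mouse at a time gave 0.5246 to 0.7445 within the heat-inducible list and 0.2245 to 0.4155 between heat-inducible and constitutive genes. No paired analysis was possible because the groups share no replicate number. With 4 mice per group, the intervals of *Hspa1a* and *Hspb1* reached past 1.5-fold on the higher side, so that a difference of that size in MS lies within them.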

Other observations

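*Cirbp*, a cold-inducible RNA-binding protein whose transcript accumulates when temperature falls, was set against the heat-inducible genes after the data had been seen, together with *Rbm3*, a second cold-inducible RNA-binding protein. The values are therefore a description of the 8 mice and carry no test. *Cirbp* had 4.09, 4.39, 4.53 and 4.05 in MS 5.3, 7.2, 7.1 and 7.6, against 4.20, 4.27, 4.37 and 4.14 in control 8.2, 8.4, 6.2 and 8.5, so that MS 5.3 and 7.6, the mice with the highest heat-inducible values, had the lowest. Its group means differed by 0.02. Its r was below 0 with 9 of 9 heat-inducible genes (median -0.59), from -0.93 with *Hsph1* (rho = -0.95) and -0.92 with *Hspb1* (rho = -0.88) to -0.15 with *Dnajb4*. Without the 2 mice farthest on the x axis, r was -0.90 with *Hsph1*, -0.89 with *Hspb1* and 0.30 with *Dnajb4*. *Rbm3* had an r below 0 with 7 of 9 genes (median -0.25).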
